A study of Arabidopsis thaliana with 2 samples.

Results

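The genes described here are 10 Arabidopsis thaliana genes known to respond to oxylipins and foreign chemicals, of 26743 features measured. They encode the cytochrome P450 enzymes CYP81D11 (AT3G28740) and CYP81D8 (AT4G37370), the glycosyltransferases UGT74E2 (AT1G05680), UGT73B4 (AT2G15490) and UGT75B1 (AT1G05560), the flavin-dependent reductases OPR1 (AT1G76680) and OPR2 (AT1G76690), the efflux carriers DTX1 (AT2G04040) and DTX3 (AT2G04050), and a tolB-like protein (AT4G01870). They were chosen by locus with their levels in these libraries already known, so the difference between the genotypes is a description of them and carries no test. RNA was sequenced from whole Col-0 seedlings, with 1 library of wild type (WT) and 1 library of jmj17-1, a mutant of JMJ17, which encodes an enzyme that removes methyl groups from histone H3 lysine 4. Both genotypes were harvested after 7 days on half-strength MS plates lacking sucrose, with 16 h of light and 8 h of dark. Each genotype was represented by 1 library, so no difference below has a replicate check. The sources used here state neither the position of the jmj17-1 mutation nor how many seedlings were pooled.

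Oxylipins are oxidised fatty acids. Enzymatic ones such as 12-oxophytodienoic acid (OPDA) are precursors of jasmonate, and others form when membranes are oxidised. In plants both kinds, and many foreign chemicals, induce a detoxification programme in which P450 enzymes and reductases modify a compound, glycosyltransferases and glutathione transferases conjugate it, and carriers remove it from the cytosol. Class II TGA transcription factors, which bind TGACG motifs, and their GRAS-family partner SCL14 are known regulators of this programme.

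The upstream sequences of 6 genes are shown first, because TGACG is the motif that these regulators bind and because DTX1 and UGT74E2 each lie beside a relative with a much lower fold. Each is the 250 bases before the annotated start of the gene, 5′ to 3′ on the strand of the gene, from the RefSeq sequence and annotation of TAIR10.1. Capitals mark TGACG on either strand (CGTCA on the reverse strand) and the palindrome CACGTG, known as the G-box.
CYP81D11, chr3:10790554-10790803, minus strand: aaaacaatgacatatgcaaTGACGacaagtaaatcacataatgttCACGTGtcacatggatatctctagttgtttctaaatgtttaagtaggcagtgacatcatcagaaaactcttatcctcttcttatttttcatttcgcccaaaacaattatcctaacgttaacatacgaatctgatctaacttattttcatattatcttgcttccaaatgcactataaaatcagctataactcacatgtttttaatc
DTX1, chr2:1336551-1336800, minus strand: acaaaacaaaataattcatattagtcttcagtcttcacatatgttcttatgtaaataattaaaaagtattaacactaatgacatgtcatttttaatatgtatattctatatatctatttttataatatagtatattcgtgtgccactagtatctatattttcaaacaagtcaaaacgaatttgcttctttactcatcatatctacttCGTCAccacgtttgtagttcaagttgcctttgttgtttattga
DTX3, chr2:1339469-1339718, minus strand: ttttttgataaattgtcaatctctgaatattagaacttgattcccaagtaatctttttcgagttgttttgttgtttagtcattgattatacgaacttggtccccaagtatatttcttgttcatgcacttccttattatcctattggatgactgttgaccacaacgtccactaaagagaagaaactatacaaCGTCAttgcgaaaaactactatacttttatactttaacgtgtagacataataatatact
UGT74E2, chr1:1704839-1705088, minus strand: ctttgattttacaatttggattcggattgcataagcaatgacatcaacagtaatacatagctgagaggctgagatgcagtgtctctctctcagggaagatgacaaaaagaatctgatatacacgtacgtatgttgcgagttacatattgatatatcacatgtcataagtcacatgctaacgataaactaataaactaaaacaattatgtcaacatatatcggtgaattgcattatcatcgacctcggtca
UGT74E1, chr1:1702750-1702999, minus strand: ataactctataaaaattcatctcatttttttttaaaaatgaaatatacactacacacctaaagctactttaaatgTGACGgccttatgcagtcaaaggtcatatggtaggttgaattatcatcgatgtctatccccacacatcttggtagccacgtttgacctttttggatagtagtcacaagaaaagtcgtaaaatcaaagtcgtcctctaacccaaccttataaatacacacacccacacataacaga
UGT73B4, chr2:6761385-6761634, plus strand: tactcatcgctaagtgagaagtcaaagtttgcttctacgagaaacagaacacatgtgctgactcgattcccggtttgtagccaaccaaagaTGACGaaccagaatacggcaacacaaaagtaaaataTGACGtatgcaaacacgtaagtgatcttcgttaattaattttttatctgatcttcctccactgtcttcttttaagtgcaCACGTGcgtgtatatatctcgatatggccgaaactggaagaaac
None of the 6 windows holds an annotated exon of another gene, and that of UGT73B4 lies inside the annotated span of UGT73B5.

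CYP81D11 has 1 TGACG beginning 231 bases before its start and a G-box beginning 205 bases before it. UGT73B4 has TGACG at 159 and 123 bases and a G-box at 44 bases before its start. DTX1 and DTX3 each have 1 motif on the reverse strand, at 43 and 59 bases. UGT74E1, a relative of UGT74E2 that is not among the 10 genes, has 1 at 175 bases, while UGT74E2 has neither set of letters. Over all 10 genes, 4 windows held TGACG, against 18.6% of the windows of 27443 nuclear protein-coding genes. A G-box was present in 3 of 10, against 6.49%, and that of CYP81D8 lies in an exon of its neighbour AT4G37380. In the wider window of 1000 bases TGACG was present in 5 of 10 genes, against 54.1% of all genes, and the G-box in 6 of 10, against 14.8%. The doubled motif TGACGNNNNNNNTGACG, the spacing of the as-1 element, was in none of the 10 windows of either length and in 0.0619% and 0.179% of all. Of the 10 windows of 250 bases only 6 were free of exons of other genes, since CYP81D8, UGT75B1, OPR2 and AT4G01870 start close to or inside a neighbour. In the windows of 1000 bases such exons were not counted. These matches are letters found in a sequence and were not measured as binding sites.

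Levels are in RPKM as deposited by the authors, that is, read numbers divided by feature length and by library size, so they may be compared between genes. The low RPKM values gave an approximate depth of 53900000 reads for WT and 45400000 reads for jmj17-1. Folds are plain ratios of RPKM (jmj17-1 over WT), and their 95% intervals (exact Clopper-Pearson, from approximate reads) cover counting error only. A feature was called different when log2 of (jmj17-1 RPKM + 1) over (WT RPKM + 1) was at least 1 in size, among 18969 features with a mean of at least 1 RPKM. JMJ17 itself stood at 5.48 RPKM in WT against 2.90 in jmj17-1 (fold 0.529, 0.483 to 0.580).

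In jmj17-1, 9 of the 10 genes had a higher RPKM than in WT and 1, DTX3, did not. Of all features tested, 60.5% had a log2 ratio above 0. CYP81D11, DTX1, UGT74E2 and AT4G01870 were more than 3-fold higher, UGT73B4, CYP81D8 and UGT75B1 were close to 2-fold higher, and OPR1 and OPR2 about 1.5-fold. By the rule on the log2 ratio 4 of the 10 were called higher and none lower, where 0.390% of all features tested were called higher and 0.580% lower. DTX3 lay under the limit of 1 RPKM and was not among the 9 tested. The genes were chosen with this contrast known, so nothing is read from these counts. A plain fold of at least 2 was reached by 7 of the 10 and by 0.770% of all features tested. With 0.1 RPKM added in place of 1, 7 of the 10 were called higher beside 0.749% of all features tested, and with 5 RPKM 2 of the 10 beside 0.132%. With levels rescaled on nuclear loci, UGT73B4 and UGT75B1 passed too, which made 6 of the 10 beside 0.427%. With a minimum mean of 5 RPKM, UGT74E2 was not tested and 3 of the 10 were called, beside 0.392%. Summed over the 10 genes, the level was 154 RPKM in WT against 314.5 in jmj17-1, and OPR1 made up 47.8% and 35.3% of these sums. In bulk RNA from whole seedlings, a change in the number of cells that express a gene and a change in RNA per cell cannot be told apart.

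**Figure D1:**
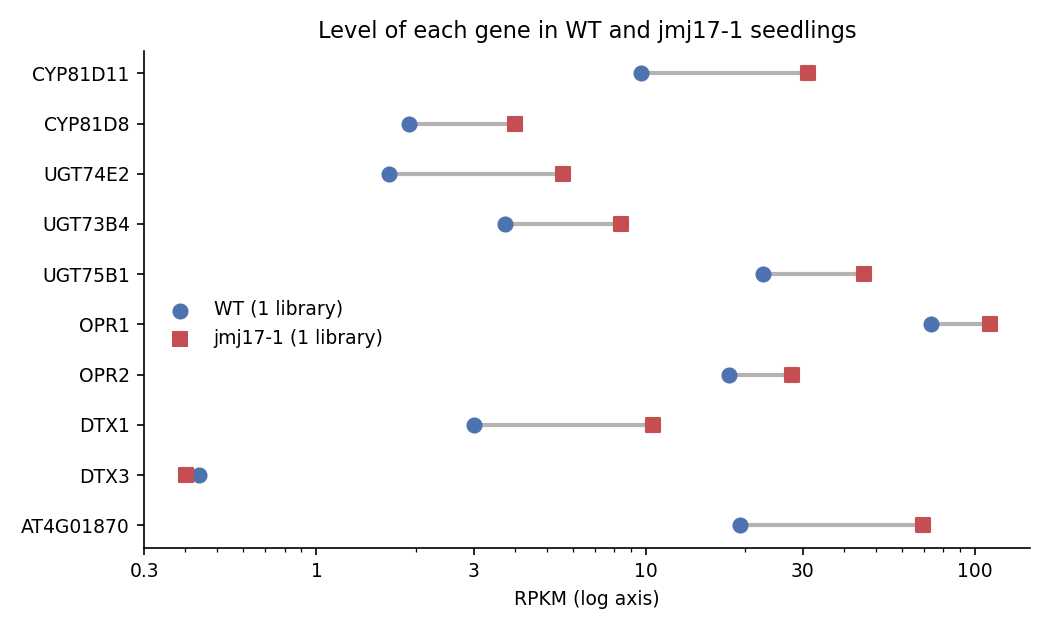
RPKM of each of the 10 genes (log axis) in the WT library (circles) and the jmj17-1 library (squares), with a grey line joining the pair. 9 genes lie further right in jmj17-1, and DTX3 lies under 1 RPKM in both libraries.

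Of the P450 enzymes, CYP81D11 is known to be induced by cis-jasmone and by foreign chemicals. It stood at 9.65 RPKM in WT against 31.1 in jmj17-1, from about 831 and 2254 reads (3.22-fold, 2.97 to 3.49, log2 ratio 1.59). CYP81D8, a stress-responsive member of the same subfamily, stood at 1.92 and 4.02 RPKM (2.09-fold, 1.74 to 2.52). Both were higher in jmj17-1, and their counting intervals did not overlap. The log2 ratio of CYP81D8 was 0.78, under the limit, since the added 1 RPKM weighs on a gene at this level. CYP81D11 (chr3:10788698-10790553, minus strand) has 3 exons. Its last 32 exonic bases overlap AT3G28730, an HMG-domain gene of the opposite strand, which stood at 25.0 and 24.0 RPKM. CYP81D8 (chr4:17569740-17571743, minus strand) shared no stretch of 50 bases with another transcript. The coding sequences of the pair were 68.6% identical.

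CYP81D8 has relatives close by on chromosome 4, and the 3 shown here had lower folds. CYP81D3 stood at 1.53 RPKM in WT against 1.21 in jmj17-1 (fold 0.789, 0.601 to 1.02), and its coding sequence is 78.1% identical to that of CYP81D8. CYP81D4 stood at 13.4 and 12.4 RPKM, and CYP81D5 at 5.40 and 6.80 (fold 1.26, 1.13 to 1.41). The intervals of all 3 lie below that of CYP81D8. CYP81D2, its direct neighbour, has no value among the features measured. Of 8 listed CYP81D genes outside the 10, 7 had a value and 5 were tested. None of the 5 was called, where 0.390% of all features tested were called higher and 0.580% lower. Among the 5, 2 lay above 0, as did 60.5% of all features tested, and 3 below. Their median log2 ratio was -0.06 against 0.04 for all features tested. The member with the largest log2 ratio, CYP81D1 on chromosome 5, stood at 1.42 and 2.48 RPKM (1.75-fold, 1.45 to 2.11).

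The glycosyltransferases transfer a sugar onto small molecules. UGT74E2, which glucosylates the auxin indole-3-butyric acid, stood at 1.66 RPKM in WT against 5.62 in jmj17-1, from about 157 and 447 reads (3.38-fold, 2.81 to 4.08, log2 ratio 1.31). Beside it (chr1:1703002-1704838, minus strand), its neighbour UGT74E1 starts 252 bases beyond its 3′ end and is 89.5% identical in coding sequence, and it stood at 0.87 RPKM in WT against 0.708 in jmj17-1 (fold 0.814, 0.552 to 1.19). UGT74E2 was 1.91 times as abundant as UGT74E1 in WT and 7.93 times in jmj17-1. The pair share 0.64% of the 50-base stretches of UGT74E2, so most of its sequence sets it apart.

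UGT75B1 is known to glucosylate p-aminobenzoate, a folate precursor, and was also found at the cell plate. It was the most abundant of the 3 enzymes, at 22.7 RPKM in WT against 46.2 in jmj17-1 (2.04-fold, 1.94 to 2.14, log2 ratio 1.00, just under the limit). Its relative on the same chromosome, UGT75B2, is 75.2% identical in coding sequence and stood at 0.894 and 0.905 RPKM (fold 1.01, 0.719 to 1.41). All 2136 exonic bases of UGT75B1, at chr1:1645300-1647435 on the minus strand, are overlapped by AT1G05562, annotated on the opposite strand. Whether counting used strand is not stated, so reads of that RNA cannot be told apart from those of UGT75B1. AT1G05562 has no value among the features measured.

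UGT73B4, an enzyme that can glycosylate the explosive trinitrotoluene, stood at 3.73 RPKM in WT against 8.44 in jmj17-1 (2.26-fold, 1.98 to 2.59, log2 ratio 0.99). Here the neighbour went the same way. UGT73B5 stood at 4.60 and 8.22 RPKM (1.79-fold, 1.61 to 1.99), and its interval overlapped that of UGT73B4 only at the edge, from 1.98 to 1.99. Their coding sequences are 89.3% identical, they share 17.4% of the 50-base stretches of UGT73B4, and a transcript annotated to UGT73B5 runs over the gene of UGT73B4 (chr2:6761635-6763500, plus strand), so the division of reads between the pair is uncertain. Their summed level was 8.33 RPKM in WT against 16.7 in jmj17-1, 2.0-fold higher.

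Among 16 further glycosyltransferases of the UGT73B, UGT73C, UGT74 and UGT75B groups and UGT76B1, 10 were tested, 2 were called higher and none lower. Of all features tested, 0.390% were called higher and 0.580% lower. This list was chosen with earlier results of these data known, so nothing is read from the count. UGT73C1, an enzyme that acts on cytokinins, stood at 1.22 RPKM in WT against 4.19 in jmj17-1 (3.44-fold, 2.76 to 4.30), and UGT73B2, a flavonol glucosyltransferase, at 12.0 and 25.1 (2.09-fold, 1.96 to 2.23, log2 ratio 1.00). UGT73B2 fell under the limit when the median of all features was set to 0 or the upper quartiles were matched. The other genes of the UGT73B cluster on chromosome 4 were less different. UGT73B3 stood at 7.88 and 9.82 RPKM and UGT73B1 at 56.7 and 57.7. UGT73C6 was listed at 1.24 RPKM in WT against 0 in jmj17-1, but a transcript annotated on the opposite strand covers all of it, and it shares stretches with UGT73C5, so its value is uncertain.

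OPR1 and OPR2 belong to the family of 12-oxophytodienoate reductases, but act poorly on the natural isomer that leads to jasmonate. They reduce other electrophilic compounds, trinitrotoluene among them. OPR1 was the most abundant of the 10 genes in both libraries, at 73.7 RPKM in WT against 111 in jmj17-1, from about 8404 and 10655 reads (1.5-fold, 1.46 to 1.55, log2 ratio 0.58). OPR2 stood at 17.9 and 27.9 RPKM (1.56-fold, 1.46 to 1.67, log2 ratio 0.61). Neither was called, and the intervals of their folds overlapped. The ratio of OPR1 to OPR2 was 4.12 in WT and 3.98 in jmj17-1. The genes lie head to tail on the plus strand of chromosome 1 (OPR1 at chr1:28776626-28778837, OPR2 at chr1:28778622-28780483), with an annotated overlap of 216 bases. Their coding sequences are 85.5% identical, and 13.2% of the 50-base stretches of OPR1 are found in OPR2, so part of their reads could be divided either way. Their summed level was 91.6 RPKM in WT against 138.8 in jmj17-1, 1.52-fold higher.

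OPR3, the reductase of jasmonate synthesis, is only 57.4% identical to OPR1 in coding sequence. It stood at 18.1 RPKM in WT against 15.5 in jmj17-1 (fold 0.856, 0.794 to 0.923), lower where OPR1 and OPR2 were higher. A further pair of the family, AT1G17990 and AT1G18020, have coding sequences that are 100% identical. AT1G17990 stood at 6.59 and 15.9 RPKM and was called higher, while AT1G18020 stood at 21.0 in WT and was listed at 0 in jmj17-1 and was called lower. Of the 50-base stretches of their transcripts, 77.8% of those of AT1G17990 and 83.6% of those of AT1G18020 are found in the other. Reads from these shared stretches cannot be assigned to one or the other, so both values are uncertain. Their summed level was 27.6 RPKM in WT against 15.9 in jmj17-1 (fold 0.575). The last member of the family, AT1G09400, stood at 0.207 and 0.152 RPKM.

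DTX1 and DTX3 are multidrug and toxic compound extrusion (MATE) carriers, and DTX1 exports plant alkaloids and toxic compounds. DTX1 stood at 3.002 RPKM in WT against 10.5 in jmj17-1, from about 298 and 880 reads (3.50-fold, 3.07 to 4.01, log2 ratio 1.52). DTX3 stood at 0.44 and 0.402 RPKM, from about 43 and 34 reads (fold 0.915, 0.580 to 1.51). A difference of DTX3 within that interval was not detectable at this depth, and the upper bound of 1.51 lies below the fold of DTX1. The carriers lie next to each other on the minus strand of chromosome 2 (DTX1 at chr2:1334270-1336550, DTX3 at chr2:1337180-1339468), 629 bases apart, with coding sequences 87.8% identical. DTX1 was 6.83 times as abundant as DTX3 in WT and 26.1 times in jmj17-1.

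Of 5 other MATE genes listed from the same stretch, 4 had a value. AT2G04080, 86.9% identical to DTX1, stood at 3.93 RPKM in WT against 4.06 in jmj17-1 (fold 1.03, 0.892 to 1.19). AT2G04090 stood at 2.02 and 1.87 RPKM, AT2G04100 at 3.73 and 3.74, and AT2G04070 at 0.0437 and 0.133. The last rested on about 4 and 10 reads, and its fold of 3.04 (0.856 to 13.0) is not determined at this depth. None of the 3 that were tested was called, beside 0.390% of all features tested called higher and 0.580% lower. In DTX1, 283 exonic bases, 15.3% of its 1845, overlap AT2G04039 on the opposite strand. That gene was more abundant and nearly level, at 29.2 and 30.3 RPKM, and without knowledge of strand its reads over these bases cannot be told apart from those of DTX1. In all, 21.5% of the 50-base stretches of DTX1 recur in AT2G04039, AT2G14661 or AT2G04070.

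AT4G01870 encodes a tolB-like protein, named for its likeness to a bacterial beta-propeller protein, and its role in plants is not established. It had the highest fold of the 10 genes, from 19.4 RPKM in WT to 69.5 in jmj17-1, with about 2337 and 7053 reads (3.58-fold, 3.42 to 3.76, log2 ratio 1.79). Among all features tested it ranked as number 11 from the highest log2 ratio. The gene (chr4:808376-810611, minus strand) overlaps no gene of the opposite strand and shared no stretch of 50 bases with another transcript. Its neighbours AT4G01860 and AT4G01880 stood at 6.04 and 6.28 RPKM and at 7.36 and 9.67 RPKM.

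**Figure D2:**
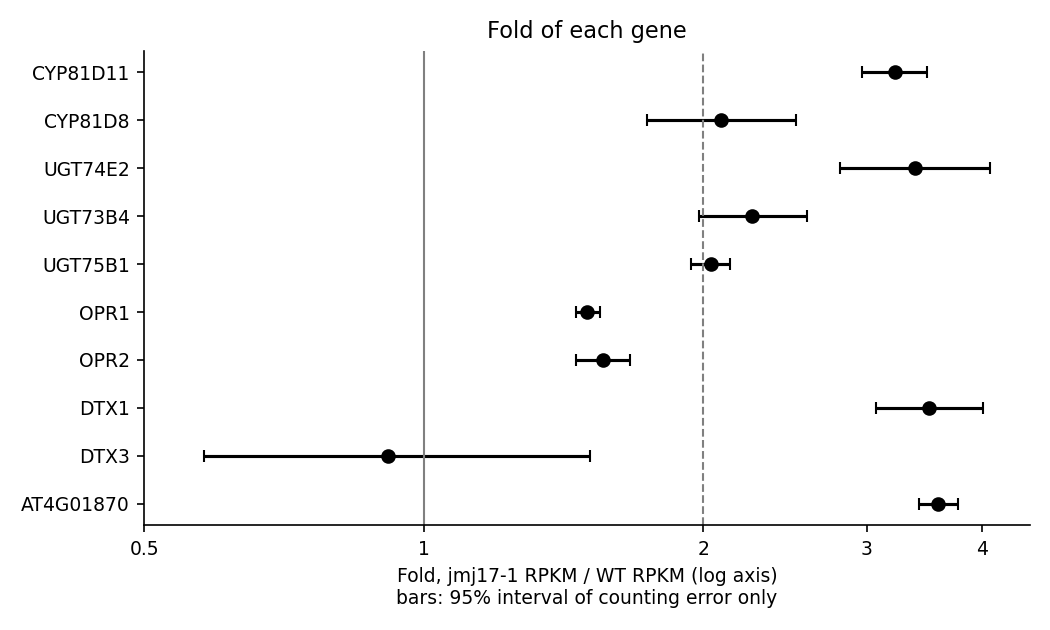
Plain fold (jmj17-1 RPKM over WT RPKM, log axis) of each of the 10 genes, with bars for the 95% interval of counting error from 1 library per genotype; the solid line is 1 and the dashed line 2. CYP81D11, UGT74E2, DTX1 and AT4G01870 lie at 3.22 to 3.58, and OPR1 and OPR2 at 1.5 and 1.56.

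The order of the levels was nearly the same in both libraries. In WT the genes ran from OPR1 through UGT75B1, AT4G01870, OPR2, CYP81D11, UGT73B4, DTX1, CYP81D8 and UGT74E2 to DTX3. In jmj17-1 AT4G01870, CYP81D11, DTX1 and UGT74E2 each stood 1 place higher, ahead of UGT75B1, OPR2, UGT73B4 and CYP81D8 respectively. The lowest, the median and the highest level were 0.44, 6.69 and 73.7 RPKM in WT against 0.402, 19.2 and 111 in jmj17-1. With 1 library per genotype, the spread that would tell neighbours in this order apart is not known.

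**Figure D3:**
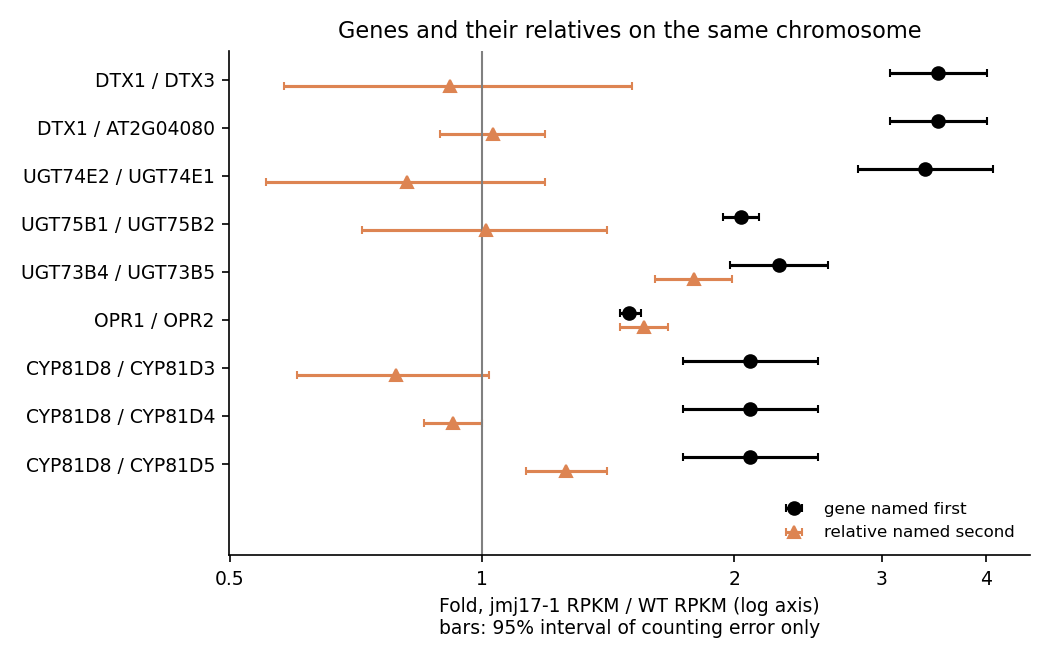
Plain fold (jmj17-1 RPKM over WT RPKM, log axis) of genes of the set (circles, named first) and of a relative on the same chromosome (triangles, named second), with bars for the 95% interval of counting error. DTX3, UGT74E1 and UGT75B2 lie at 0.814 to 1.01 beside partners at 2.04 to 3.50. The intervals of OPR1 and OPR2 overlap, and those of UGT73B4 and UGT73B5 overlap only at their edges.

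The folds are set here beside the upstream letters, as a description only. With TGACG in the 250 bases before the start were CYP81D11 at 3.22-fold, DTX1 at 3.50, UGT73B4 at 2.26 and DTX3 at 0.915. Without it were AT4G01870 at 3.58-fold, UGT74E2 at 3.38, CYP81D8 at 2.09, UGT75B1 at 2.04, OPR2 at 1.56 and OPR1 at 1.5. Of these, the windows of AT4G01870, CYP81D8, UGT75B1 and OPR2 hold exonic bases of other genes, and UGT75B1 has 1 TGACG within 1000 bases. The relatives UGT74E1 and UGT73B5, at 0.814 and 1.79, hold TGACG in their windows of 250 bases. Of the 3 genes with a G-box in that window, CYP81D11 and UGT73B4 also have TGACG and CYP81D8 does not. Only exact letters were searched, and whether either motif bears on the folds was not tested.

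Regulators of the programme were measured as well. None of 10 tested genes for TGA factors, SCL14, related NAC factors and the glutaredoxin GRX480 was called. Of all features tested, 0.390% were called higher and 0.580% lower, so nothing is read from the absence of calls in so short a list. TGA2 stood at 8.99 RPKM in WT against 9.52 in jmj17-1 (fold 1.06, 0.972 to 1.15), TGA5 at 5.60 and 6.31, and TGA6 at 4.70 and 4.45. SCL14 stood at 11.4 and 9.89 RPKM (fold 0.866, 0.805 to 0.932). The largest log2 ratios of the list were those of ANAC102, a NAC factor, at 33.5 and 42.8 RPKM, and of TGA1, a factor of another class, at 25.7 and 21.1. GRX480 stood at 0.897 and 0.587 RPKM and was not tested.

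Other detoxification genes were measured from lists of genes selected with earlier results of these data known, so nothing is read from their counts. Of all features tested, 0.390% were called higher and 0.580% lower. Of 11 tested genes for reactive carbonyl and other detoxification, 11 had a log2 ratio above 0, where 60.5% of all features tested did, 2 were called higher and none lower, and the median was 0.38. AKR4C9, an aldo-keto reductase that acts on reactive aldehydes, stood at 2.36 RPKM in WT against 8.69 in jmj17-1 (3.68-fold, 3.12 to 4.36), and AT5G16980, a relative of the alkenal reductase AER, at 6.07 and 19.4 (3.19-fold, 2.91 to 3.49). AT5G16980 shares 4.83% of its 50-base stretches with its neighbours, and AER itself stood at 56.0 and 103.7 RPKM. Of 15 tested glutathione transferases, which conjugate electrophiles, 13 lay above 0, or 12 with the median of all features set to 0, and 3 were called higher and none lower. GSTF6 stood at 21.8 and 70.8 RPKM, GSTF2 at 44.7 and 100.2, and GSTF7 at 14.5 and 32.9. In GSTF2, 60.5% of exonic bases overlap AT4G02510 on the opposite strand, so its level is uncertain.

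Genes that make oxylipins lay on both sides of 0. Of 15 tested genes from the lipoxygenases to jasmonate conjugation none was called. The shares of all features tested were 0.390% called higher and 0.580% lower, so nothing is read from the absence of calls. Of the 15 genes, 5 lay above 0, as did 60.5% of all features tested, and 10 below. Their median log2 ratio was -0.06. AOS, the allene oxide synthase that opens the OPDA branch, stood at 64.0 RPKM in WT against 48.3 in jmj17-1 (fold 0.754, 0.726 to 0.783), and LOX2, a chloroplast lipoxygenase, at 96.1 and 90.4. The largest log2 ratio was that of LOX4, a lipoxygenase, at 1.86 and 0.63 RPKM (fold 0.339, 0.264 to 0.431, log2 ratio -0.81).

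**Figure D4:**
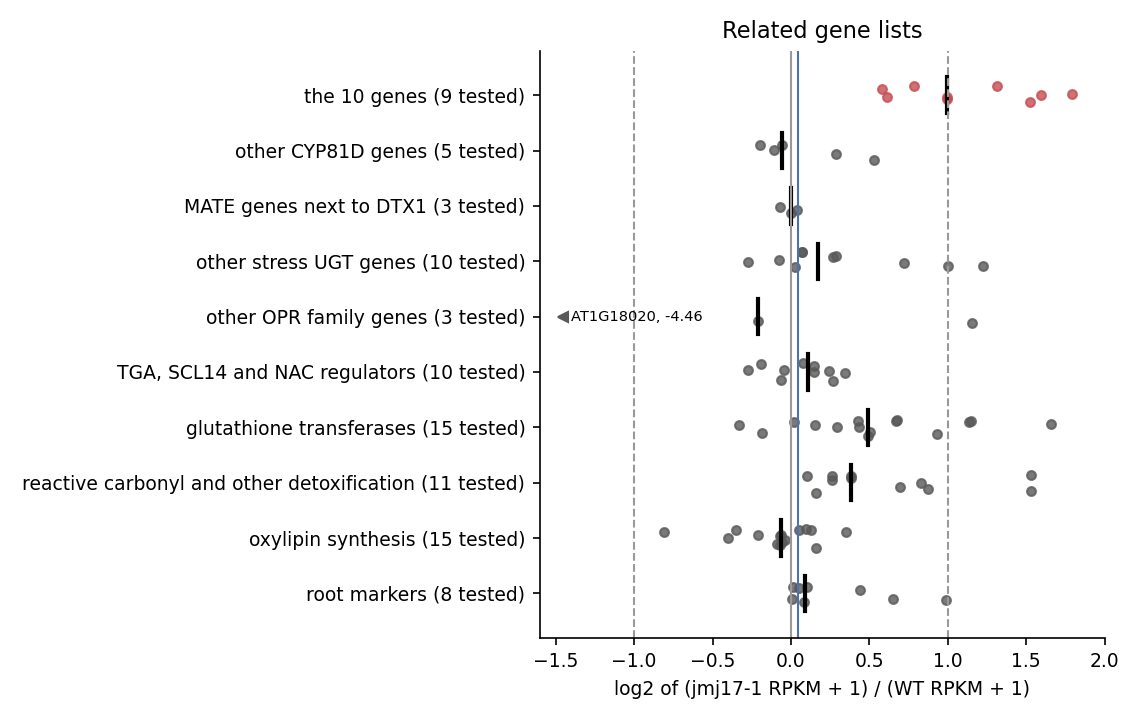
Log2 ratio of (RPKM + 1), jmj17-1 over WT, of each tested gene (points) in the 10 genes (red) and in related lists, with black bars at the list medians, dashed lines at -1 and 1, and a blue line at the median of all features tested, 0.04. The detoxification lists have medians of 0.38 and 0.49, the regulators 0.11 and the oxylipin synthesis genes -0.06; AT1G18020 lies off the axis.

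Root and shoot markers were both present in these whole seedlings. All 8 root markers lay above 0 as deposited, beside 60.5% of all features tested, and 6 with the median of all features set to 0. None of the 8 root markers was called, where 0.390% of all features tested were called higher and 0.580% lower. Their summed level was 56.5 RPKM in WT against 67.3 in jmj17-1, with none listed at 0. PRP1, a root hair wall protein gene, stood at 1.87 and 4.69 RPKM (2.51-fold, log2 ratio 0.99), and WOX5, of the root quiescent centre, at 0.943 and 2.06. SCR, SHR and PIN2, which mark root tissues, stood at 11.3 and 11.8, 8.24 and 8.27, and 10.2 and 10.3 RPKM. The 5 shoot markers lay below 0, with summed levels of 24800 and 21460 RPKM, and none was called. The 2 tested seed storage markers were called lower. CRU3 stood at 6.34 and 0.551 RPKM (log2 ratio -2.24) and CRA1 at 7.39 and 1.70 (log2 ratio -1.64). The part of organ make-up in the differences of the 10 genes was not tested.

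The authors' deposited table for p 0.05 holds 410 genes, of 26743 features measured, with 5 of the 10 among them. The authors' deposited table for p 0.01 holds 288 genes, of the same 26743, with 4 of the 10 among them. The 10 genes were chosen with this contrast known, so nothing is read from these counts. The deposited p of AT4G01870 was 1.08e-07 and that of OPR1 was 0.00617 in the authors' deposited table, although the fold of OPR1 was 1.5. UGT74E2, at 3.38-fold, had a p of 0.143 in the authors' deposited table. That p is the two-sided normal p of a Z of 2 proportions with RPKM entered as counts, so it follows the level of a gene and takes no account of the spread between seedlings.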

How the data were processed

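RNA of 1 WT and 1 jmj17-1 library of whole seedlings was made into TruSeq RNA libraries, per the labels' protocols. Per the submitters' processing notes, build TAIR10 was used. How reads were aligned, counted, assigned to strands and divided by length is not stated by the sources used here. The authors deposited RPKM for 26743 features, with a Z score and a p-value for each feature, and 2 lists named for p limits. The deposited score equalled a Z of 2 proportions with RPKM entered as counts, and the deposited p-value its two-sided normal p, in all rows (0 differed by over 1e-09 and 1e-06). Columns were matched by title.

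From these values, log2 ratios with a pseudocount of 1 RPKM, plain folds and calls past 2-fold were computed (Python 3.11.15, pandas 2.3.3, SciPy 1.17.1). No model was fitted, because each genotype has 1 library. Depth was estimated from 1184 loci above 0 and under 0.1 RPKM in both libraries. The ratio between libraries came out as a ratio of whole numbers up to 20, within a relative 1e-05, for 88.9% of them, giving a depth ratio of 1.19. Absolute depth used RefSeq exonic lengths of 784 loci with a single transcript, and the densest value was taken. Only 284 of the 784 lay within 1% of that depth, so read numbers, and the intervals drawn from them, are approximate. Genes, shared 50-base stretches of transcripts, coding identity (global alignment, Biopython 1.88) and upstream windows came from RefSeq TAIR10.1, in which all 10 genes were found. The calculation was tested on simulated data.

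The 10 genes and the related lists were chosen with earlier results of these data known. All 10 were named, and of each list up to 4 called genes or, with none called, the 2 of largest log2 ratio, together with neighbours, closest relatives, and the factors TGA2, TGA5, TGA6 and SCL14. Further relatives and markers were named after their values were seen. Alternatives changed the pseudocount, the limit on low values and the scaling. Of 118 listed genes, 6 have no value here.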

Additional observations from a re-analysis of the deposited data

How the results depend on the processing

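No paired analysis was possible because each genotype has 1 library. Of 50 log2 ratios of the 10 genes under other pseudocounts and scalings, 45 were above 0, those of all genes but DTX3, and 38 stayed inside the counting interval once that was put on the log2 scale with 1 RPKM added. With a pseudocount of 0.1 RPKM the ratios of CYP81D8, DTX1 and UGT74E2 were 1.03, 1.77 and 1.70, 7 of the 10 genes passed, 142 features were called higher (0.749%), and 1 oxylipin synthesis gene was called lower and 2 root markers higher. With 5 RPKM the ratios were 1.3 for CYP81D11, 0.38 for CYP81D8, 0.95 for DTX1, 0.67 for UGT74E2, 0.62 for UGT73B4, 0.89 for UGT75B1 and 1.61 for AT4G01870, and 2 of the 10 passed. Then 25 features were called higher (0.132%) and 49 lower, with 0 further glycosyltransferases and 0 further OPR genes higher, 1 carbonyl detoxification gene higher and 1 seed storage marker lower. A larger pseudocount shrinks the ratio of a low gene by construction. With the median of all features set to 0, or with matched upper quartiles, OPR1 stood at 0.54 in each case and 1 further glycosyltransferase was called higher. Rescaled on nuclear loci, 6 of the 10 genes passed, UGT73B4 at 1.01 and UGT75B1 at 1.01 among them. With no filter on low values 1 further glycosyltransferase, UGT73C6, was called lower. At a mean of at least 5 RPKM 71 features were lower, 3 of the 10 genes and 1 further glycosyltransferase were higher and 0 seed storage markers were lower, since fewer genes were tested. Leaving out a replicate was not possible with 1 library per genotype. Depth limits DTX3 most, and the spread between seedlings is unknown for every gene.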
